A study of Mus musculus with 3 samples.

Results

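External tufted cells of the type called ET2 and mitral cells of the type called M1 were compared in the olfactory bulb (OB) of 3 adult male C57Bl/6 mice, each the source of 1 single-nucleus RNA library. The ET2 nuclei were taken as subcluster 6 and the M1 nuclei as subcluster 5 of the deposited projection neuron subclusters, numbers matched to the types here by the study's marker genes. They numbered 471 and 686, together 1157 of the 7504 nuclei that the authors had assigned to projection neuron subclusters and of 31703 nuclei in all. In the deposited main clusters, the 471 ET2 nuclei lay in cluster 14. Of the M1 nuclei, 678 lay in cluster 13, 7 in cluster 5 and 1 in cluster 14. All 3 mice had received the same virus, retroAAV-CAG-H2B-GFP, at several sites of the piriform cortex (PCx) and the anterior olfactory nucleus (AON), and carried no other treatment or allele named in the labels. The virus is taken up by axon terminals and marks the nucleus with a green fluorescent histone, and GFP-positive nuclei were then sorted. Nuclei of both types are therefore expected mainly from cells whose axons reach, or pass through, the injected areas. For putative periglomerular and granule cells, the paper proposes that GFP may also have come from infected migrating neurons or from virus diffusion. UMIs (unique molecular identifiers, each standing for 1 captured RNA molecule) were summed over the nuclei of a type in each mouse, which gave 3 ET2 and 3 M1 libraries paired by mouse.

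Mitral cells and tufted cells are the glutamatergic neurons that carry odour information from the OB to the cortex. Mitral cell somata lie in the mitral cell layer, whereas external tufted cells lie near the glomeruli, where olfactory sensory axons end. LIM homeodomain factors (the Lhx genes) and early B-cell factors (the Ebf genes) are DNA-binding proteins that take part in setting neuronal identity. They work in combinations, and Lhx1 and Lhx5 are close relatives that often mark the same lineages. The question put to the data was which genes separate these types, which both hold Lhx5 and Ebf genes, and which they share against the other projection neurons.

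The ET2 libraries held 69, 315 and 87 nuclei in mice 1, 2 and 3, with 864170, 3874635 and 1417470 UMIs. The M1 libraries held 14, 465 and 207 nuclei, with 161593, 8347893 and 5019472 UMIs. The M1 library of mouse 1 thus rests on 14 nuclei, and it stood apart in its content. The summed level of the 14 genes that the study lists for M1 was 1906 UMIs per 1000000 UMIs of the library (CPM) there, against 8683 and 8884 CPM in mice 2 and 3. The summed level of the 10 genes listed for the mitral type M3 was 743 CPM there, against 250.1 and 164 CPM, and that of 11 genes listed for M2 was 1052 CPM, against 480.1 and 610 CPM. Of its 14 nuclei 7 held no Ebf1 UMI. Those 7 had 144 CPM of Cntn6, an M1 gene, and the 5 nuclei with at least 5 Ebf1 UMIs had 749 CPM. Where leaving out mouse 1 changed the call of a gene named below, this is said beside it. No barcode was shared between libraries among these 1157 nuclei.

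Both types carried the markers of glutamatergic projection neurons. Slc17a7, the vesicular glutamate transporter VGLUT1, was at 226, 189.7 and 269 CPM in the ET2 libraries of mice 1, 2 and 3 and at 248, 215 and 236 CPM in the M1 libraries. Cdhr1, a protocadherin-related protein of mitral and tufted cells, was at 351, 296 and 337 CPM in ET2 and 421, 307 and 308 CPM in M1. Of the 3 genes that the study lists for all external tufted types, Shisa6 was at 2114, 2112 and 2186 CPM in ET2 against 0, 74.5 and 43.6 CPM in M1, and Gabbr2 was also called higher in ET2. The third, Pip5k1b, was at 48.6, 22.7 and 26.8 CPM in ET2 and 18.6, 17.8 and 12.9 CPM in M1 and was not called, whereas ET1 and ET4 averaged 639 and 1953 CPM. Of the 2 genes listed for all tufted types, Astn2 was called higher in ET2 and Zbtb20 was not called (0.53 ± 0.17), at 364 ± 48.8 CPM in ET2 against averages of 1224 CPM in T1 and 3740.0 CPM in ET4. Fam19a2, listed for all mitral types, was at 501, 1294 and 1376 CPM in M1 and 53.2, 55.7 and 42.3 CPM in ET2, and the other gene so listed, Tnfaip8, was higher in M1 as well (-2.37 ± 0.25). The ET2 nuclei thus carried some of the study's tufted markers and lacked the high levels of Pip5k1b and Zbtb20 found in ET1 and ET4. The types are called ET2-like and M1-like because the deposited table numbers its clusters and names none. UMIs of inhibitory neurons were present in both types. Gad1, which makes GABA, was at 106, 162 and 44.4 CPM in ET2 and 37.1, 104 and 35.3 CPM in M1, highest in mouse 2 in both. The 10 inhibitory markers summed to 356 to 1252 CPM in ET2 and 433 to 985 CPM in M1. None of the 10 was called different between ET2 and M1, though 1 was without mouse 1. Their levels over the other named types are given with the shared genes. Microglial, astrocytic and endothelial lists held no called gene either. Of other cell types' markers, 1 of 6 tested for oligodendrocytes (Mag, 2.23 ± 0.60), 1 of 4 for ensheathing glia (Frzb, 3.18 ± 0.39) and 1 of 4 for immature neurons (Cd24a, 4.00 ± 0.72) were called higher in ET2. The others of these lists were not called, Mbp at -0.06, Fabp7 at 0.18, Dcx at -0.34 and Sox4 at -0.42 among them. Lhfpl3 (oligodendrocyte precursors) was higher in M1 (-2.09 ± 0.19), at 3719, 3419 and 3776 CPM against 912, 815 and 886 CPM. The other 5 precursor markers had 5 to 51 UMIs over the 6 libraries and were not tested, and Lhfpl3 averaged 4573 CPM in M2 and 4248 CPM in T1. For cells other than inhibitory neurons, their part in other results was not tested. Counts without nuclei holding 2 or more inhibitory marker UMIs are given in the closing section.

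Of 12163 genes tested, 710 were higher in ET2-like nuclei and 783 higher in M1-like nuclei, which is 5.84% and 6.44% of the genes tested and 12.3% in both directions together. A gene was called where edgeR's quasi-likelihood test, with the mouse as a block, gave a Benjamini-Hochberg adjusted p under 0.05 and a log2 fold change above 1 in size. Log2 fold changes are given as ET2 minus M1 throughout, with their standard error. In 637 of the 710 and 656 of the 783 genes the 3 libraries of one type all lay above the 3 of the other. Over all genes tested, the libraries were apart in this way in 18.5% with ET2 above and 11.9% with M1 above. For a larger set, 6130 genes, the 95% interval of the log2 fold change lay within -1 to 1. This bounds the size of a difference, and some of these genes still differed by less than that. Because the authors had drawn the subclusters from these counts, the tests measure how far given clusters lie apart over 3 mice and are no independent evidence that the clusters exist. Without mouse 1 the counts were 814 and 1032, with 684 and 753 of the genes called above among them. They fell to 363 and 432 without mouse 2 and to 418 and 476 without mouse 3.

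**Figure D1:**
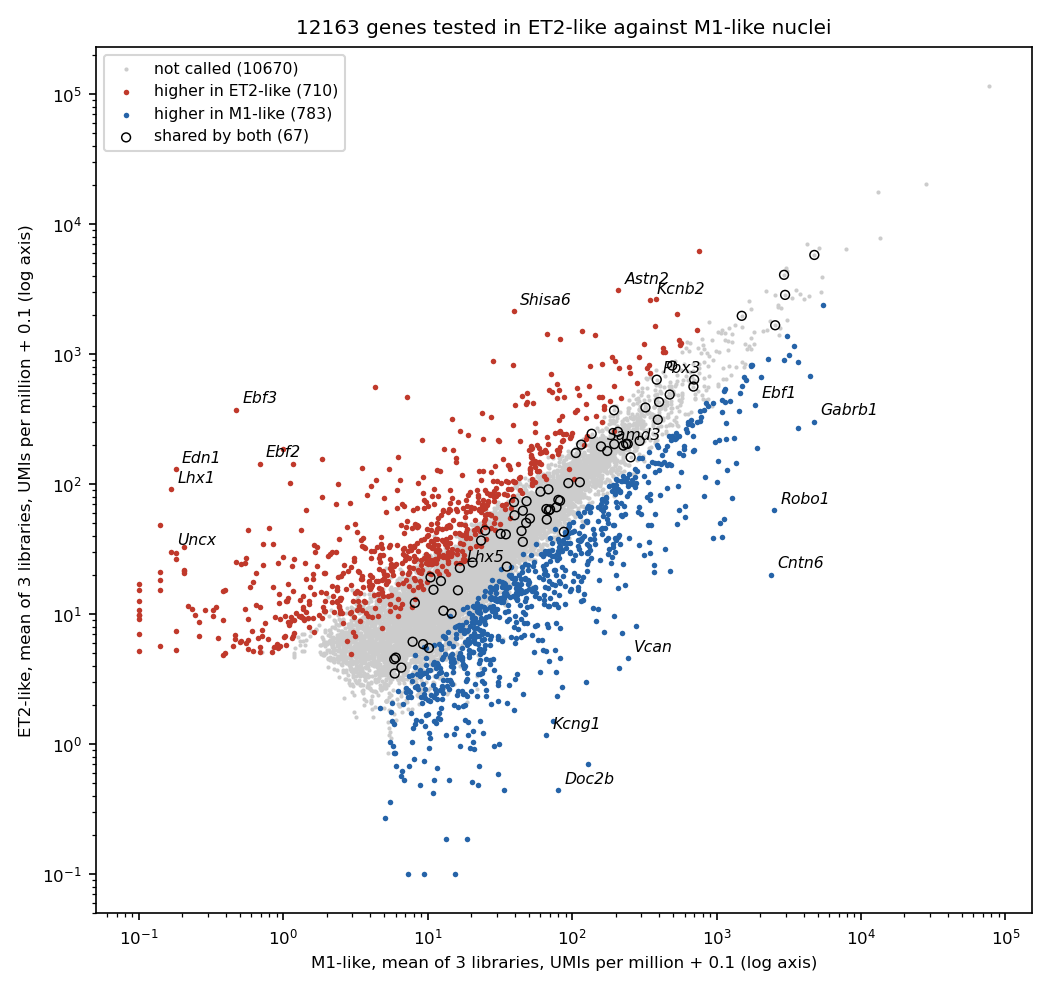
Mean level of each of the 12163 genes tested in the M1-like libraries (horizontal, UMIs per 1000000 + 0.1, log axis) against that in the ET2-like libraries (vertical, same scale), 3 libraries each. Red points are the 710 genes called higher in ET2, blue points the 783 called higher in M1, grey points the others, and open circles the 67 genes shared by both types against the other projection neurons.

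The LIM homeodomain genes divided into one that both types shared and several that differed. Lhx1 (ENSMUSG00000018698; GRCm38 chr11:84518284-84525535, minus strand) was at 90.3, 90.3 and 93.8 CPM in the ET2 libraries of mice 1, 2 and 3 and at 0, 0 and 0.199 CPM in the M1 libraries. The ET2 libraries lay close together, and 1 Lhx1 UMI was found in all M1 nuclei. Over the summed libraries the level was 1233 times higher in ET2, with a 95% counting interval of 220.4 to 48781 that covers counting error only. The fitted log2 fold change was 9.59 ± 0.43 (SE; edgeR adjusted p = 1.46e-08). Lhx1os, a noncoding RNA that starts beside Lhx1 on the opposite strand, was at 82.2, 51.6 and 76.9 CPM against 6.19, 0.479 and 0 CPM. Lhx5 (ENSMUSG00000029595; chr5:120431699-120441223, plus strand) was at 20.8, 23.5 and 23.3 CPM in ET2 and 6.19, 22.6 and 20.9 CPM in M1. Only the 14-nucleus library of mouse 1, with 1 Lhx5 UMI, lay low, and the other 5 libraries lay between 20.8 and 23.5 CPM. The log2 fold change was 0.08 ± 0.27 (95% interval -0.49 to 0.66; edgeR adjusted p = 0.886), so the Lhx5 levels of the types were not told apart and a difference above 1 on the log2 scale lay outside the interval.

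The list held 18 LIM genes and cofactors and Lhx1os, so that the Lhx1 locus stands in it with 2 genes. Of these 19, 10 passed the filter on low counts, with 4 higher in ET2, Lhx1 and Lhx1os among them, and 2 higher in M1, beside 5.84% and 6.44% of all genes tested. Lhx1 is on the study's ET2 list and Lhx5 on its M1 list, both chosen on these samples. Lhx9 was at 25.5, 12.6 and 26.8 CPM in ET2 against 12.4, 1.56 and 2.59 CPM in M1 (log2 fold change 2.90 ± 0.44, edgeR adjusted p = 3.50e-04; not called without mouse 3). Ldb2, a cofactor that joins LIM proteins into complexes, was at 45.1, 24.8 and 16.2 CPM against 0, 3.83 and 2.19 CPM (2.75 ± 0.38). The opposite held for Lhx2, a LIM homeodomain factor of forebrain progenitors and neurons, at 2.31, 2.58 and 4.23 CPM in ET2 and 68.1, 28.6 and 23.5 CPM in M1 (-3.44 ± 0.39, adjusted p = 3.18e-05). Lmo4, a LIM-only protein that competes for the same cofactors, was also higher in M1 (-1.08 ± 0.20), though not without mouse 2. The related cofactor Ldb1 was at 23.1, 16.8 and 16.2 CPM in ET2 and 37.1, 11.5 and 14.3 CPM in M1 and was not called, and neither were Lmo2 nor Lmo3, with log2 fold changes of 1.18 and -0.04. Lhx3, Lhx4, Lhx6, Lhx8, Isl1, Isl2, Lmx1a, Lmx1b and Lmo1 had too few UMIs to be tested.

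The Ebf family split by member. Ebf1 was high in both types and higher in M1, whereas Ebf2 and Ebf3 were found almost entirely in ET2. Ebf1 (ENSMUSG00000057098; chr11:44617317-45008091, plus strand) was at 602, 191 and 435 CPM in ET2 and at 761, 2322 and 2437 CPM in M1. The lowest M1 library lay above the highest ET2 library, with the M1 library of mouse 1 well below those of mice 2 and 3. The log2 fold change was -2.27 ± 0.48 (edgeR adjusted p = 0.00460). It was -3.15 without mouse 1 and -1.49 without mouse 2, and in the latter fit the gene was no longer called. Ebf3 (ENSMUSG00000010476; chr7:137193673-137314445, minus strand) was at 393, 323 and 406 CPM in ET2 and 0, 0.120 and 0.996 CPM in M1 (log2 fold change 9.42 ± 0.36, adjusted p = 6.92e-09). Ebf2 (chr14:67233292-67430918) was at 176, 101 and 155 CPM against 0, 0.958 and 0.797 CPM (6.95 ± 0.28). All ET2 libraries lay above all M1 libraries for both genes. Ebf4 was low in both, at 9.26, 5.42 and 4.23 CPM and 0, 1.08 and 0 CPM, and still called higher in ET2 (2.89 ± 0.78, adjusted p = 0.0193; not called without mouse 3). The zinc finger proteins Zfp423 and Zfp521, which bind Ebf proteins, were higher in ET2 as well. Zfp521 was at 57.9, 79.2 and 111 CPM in ET2 and 6.19, 2.04 and 2.79 CPM in M1, and Zfp423 at 60.2, 41.8 and 48.0 and 0, 18.2 and 16.1 CPM. All 6 listed genes of this group were thus called, 5 higher in ET2 and Ebf1 higher in M1, where 12.3% of all genes tested were called. Ebf2 and Ebf3 are on the study's ET2 list and Ebf1 is on its M1 list. Those lists were chosen on these samples and used to match the subclusters, so these calls are not independent evidence.

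Among the 7 named types, Lhx5 and Ebf1 were high in these 2 types and low in the other 5 (M2, M3, T1, ET1 and ET4). Ebf1 averaged 1840.0 ± 936 CPM in M1 and 409 ± 206 CPM in ET2 (SD, n = 3 mice), and the highest of the 15 other libraries, an M3 library, held 75.0 CPM. For Lhx5 the means were 22.5 ± 1.48 CPM in ET2 and 16.6 ± 9.04 CPM in M1, which do not differ beyond their spread, and the highest other library held 3.63 CPM. Lhx1, Ebf2, Ebf3 and Uncx, a homeobox factor, were high in ET2 alone of the 7 types. None of the 15 libraries of the other 5 types exceeded 0.856 CPM of Lhx1, 0.165 CPM of Uncx, 6.44 CPM of Ebf2 or 8.08 CPM of Ebf3. Ebf1 was also found in 2 small subclusters that carry no type name here, subclusters 8 and 9, at 142 ± 160 and 364 ± 407 CPM.

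**Figure D2:**
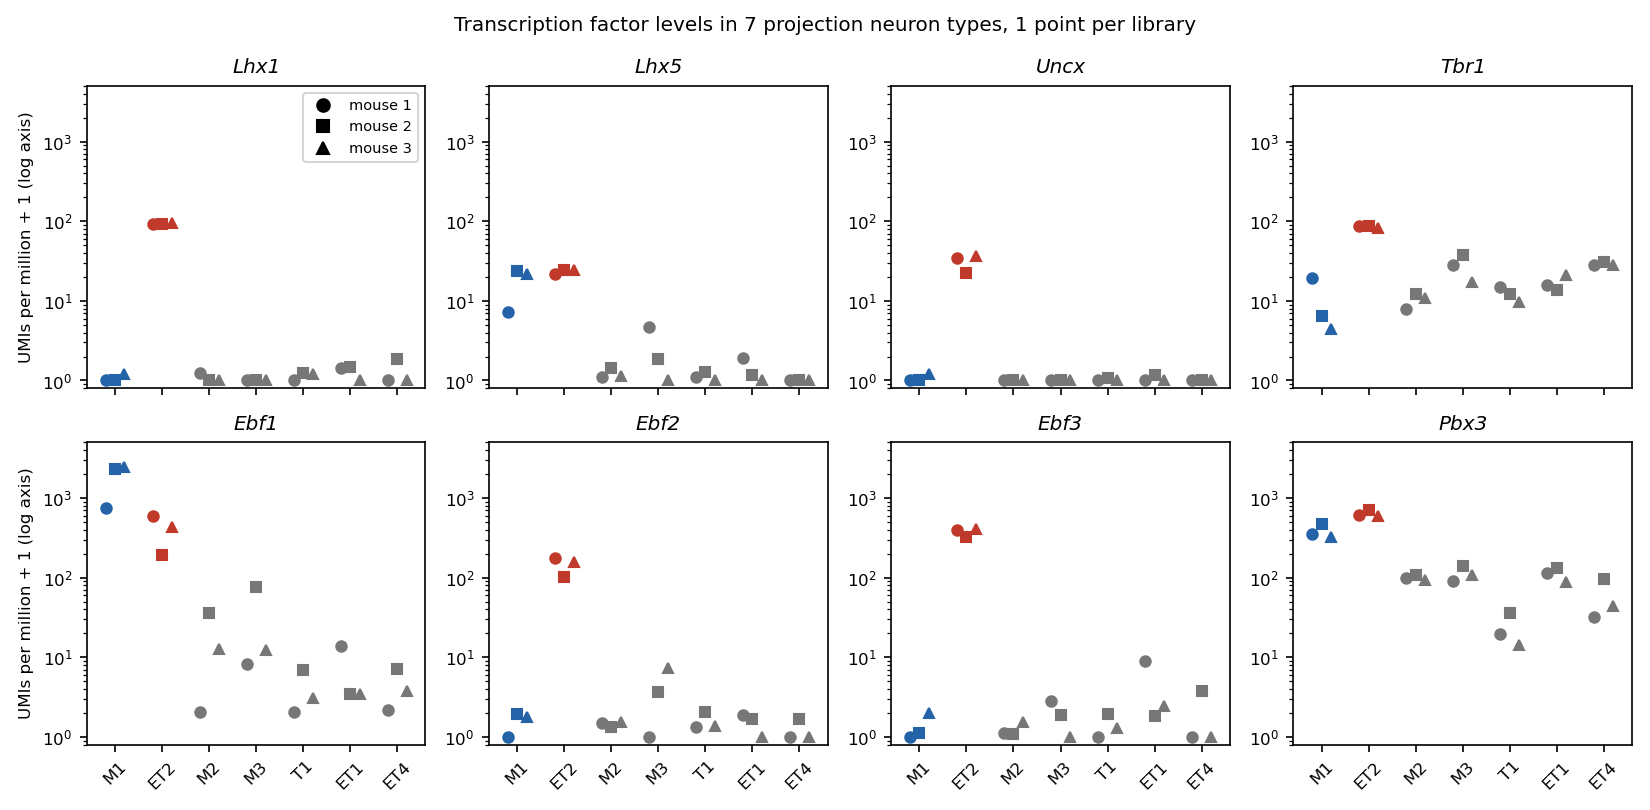
Level of 8 transcription factors in each library of 7 projection neuron types (UMIs per 1000000 + 1, log axis), with 1 point per mouse and type, M1 in blue, ET2 in red and the others in grey. Lhx5, Ebf1 and Pbx3 lie high in M1 and ET2, Lhx1, Uncx, Ebf2 and Ebf3 in ET2, and the M1 library of mouse 1 lies below the other M1 libraries for Lhx5 and Ebf1.

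The promoters of 3 of the factors held by ET2 and nearly lacking in M1 are shown as examples of such factors. Each runs from 250 bases before to 50 bases after the gene's start in RefSeq, 5′ to 3′ on the gene's strand (GRCm38.p6). Capitals mark TAATTA, the core letters bound by many LIM and other homeodomain factors. The Ebf motif, TCCC and GGGA with any 2 bases between them, was searched as well, and both motifs read the same on either strand.
Lhx1, chr11:84525485-84525784, minus strand: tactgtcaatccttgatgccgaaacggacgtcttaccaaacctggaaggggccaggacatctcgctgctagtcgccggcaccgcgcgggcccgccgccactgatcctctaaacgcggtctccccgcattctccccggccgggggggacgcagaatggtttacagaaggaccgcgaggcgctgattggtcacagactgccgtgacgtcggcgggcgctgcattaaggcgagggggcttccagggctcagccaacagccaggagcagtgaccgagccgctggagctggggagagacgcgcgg
Ebf3, chr7:137314396-137314695, minus strand: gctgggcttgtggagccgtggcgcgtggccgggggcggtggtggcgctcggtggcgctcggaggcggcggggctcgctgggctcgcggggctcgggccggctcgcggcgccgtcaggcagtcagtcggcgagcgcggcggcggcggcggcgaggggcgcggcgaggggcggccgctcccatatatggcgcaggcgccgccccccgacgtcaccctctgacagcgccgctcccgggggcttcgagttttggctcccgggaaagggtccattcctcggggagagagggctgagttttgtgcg
Uncx, chr5:139543648-139543947, plus strand: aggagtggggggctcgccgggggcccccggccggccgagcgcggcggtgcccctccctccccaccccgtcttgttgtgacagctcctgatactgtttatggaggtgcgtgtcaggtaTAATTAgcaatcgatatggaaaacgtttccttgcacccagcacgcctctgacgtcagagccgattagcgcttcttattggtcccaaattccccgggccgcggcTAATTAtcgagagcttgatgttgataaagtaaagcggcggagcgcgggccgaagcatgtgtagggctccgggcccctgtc
The Uncx promoter held TAATTA at 2 places, and the other promoters shown held neither motif. The promoters of Ebf1, Nr2f2 and Trp73 held neither. TAATTA was found in the promoters of 6.12% of all 27025 genes with a promoter, in 24 of 503 matched genes higher in ET2 (4.77%), in 34 of 553 higher in M1 (6.15%) and in 3.55% of 9153 genes tested. The Ebf motif was found in 8 (1.59%) and 16 (2.89%) of those called genes, and in 1.32% of the genes tested and 1.06% of all. Of 45 matched genes that both types shared, as defined below, 4 held TAATTA (8.89%) and 1 the Ebf motif (2.22%). A match of these letters is a description of the sequence and not a binding site.

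Within nuclei, Ebf1 was spread differently in the 2 types. At least 1 Ebf1 UMI was found in 98.5% and 95.7% of M1 nuclei in mice 2 and 3 and in 50% of the 14 nuclei of mouse 1. In ET2 the share was 40.6%, 29.5% and 43.7%. ET2 nuclei that held Ebf1 UMIs often held many. In mouse 1, 10 of 69 nuclei had 20 or more, 11 had 5 to 19, 7 had 1 to 4 and 41 had none, and the highest nucleus had 100. In mouse 2 the same classes held 8, 40, 45 and 222 of 315 nuclei, and in mouse 3 they held 10, 20, 8 and 49 of 87. Nuclei with and without Ebf1 differed less in depth, with medians of 12802 and 10758 UMIs in mouse 1, 12886 and 10708 in mouse 2 and 18646 and 12639 in mouse 3. After every nucleus was thinned to 3000 UMIs, which left out 1, 4 and 2 ET2 nuclei, the ET2 shares were 38.2%, 21.5% and 30.6%. The M1 shares were then 42.9%, 97.4% and 94.1%. Inhibitory nuclei of cluster 0 were taken as a background level, at median depths of 6920 to 9001 UMIs. Without thinning, an Ebf1 UMI was found in 0.769% of 1301, 2.76% of 5438 and 1.70% of 942 nuclei of mice 1, 2 and 3. Thinned to 3000 UMIs, these shares were 0.553%, 1.05% and 0.857%.

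The ET2 nuclei with at least 5 Ebf1 UMIs kept the genes of ET2. The 9 genes that the study lists for ET2 summed to 1436, 963 and 1206 CPM over these 21, 48 and 30 nuclei in mice 1, 2 and 3, against 1166, 1033 and 1166 CPM in ET2 nuclei with no Ebf1 UMI. The listed M1 genes other than Ebf1 summed to 362, 389 and 242 CPM, against 87.5, 184 and 169 CPM in the nuclei without Ebf1 and 6406 and 6453 CPM in M1 nuclei of mice 2 and 3 with at least 5 Ebf1 UMIs. Ebf2 was higher where Ebf1 was present, at 385, 186 and 214 CPM against 52.1, 59.7 and 98.1 CPM. Lhx1 differed less, at 110, 103 and 97.3 CPM with Ebf1 and 81.2, 84.9 and 93.5 CPM without. This split was chosen after the values were seen and carries no test, and the nuclei with 1 to 4 UMIs lie between its sides.

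**Figure D3:**
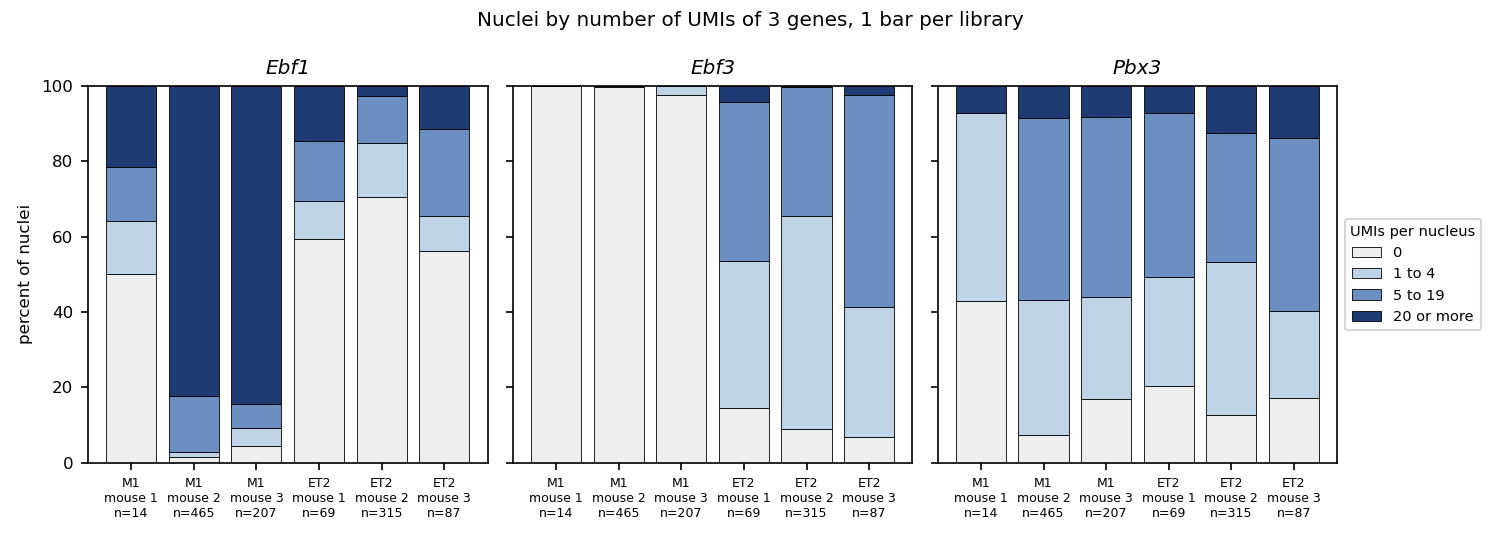
Percent of nuclei (vertical) with 0, 1 to 4, 5 to 19 and 20 or more UMIs of Ebf1, Ebf3 and Pbx3, 1 bar per library with its number of nuclei. Most M1 nuclei of mice 2 and 3 hold 20 or more Ebf1 UMIs, most ET2 nuclei hold none and a minority many, and Ebf3 is nearly restricted to ET2.

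An Lhx1 UMI was found in 56.5%, 54.6% and 56.3% of ET2 nuclei and in 1 of 686 M1 nuclei. For Ebf3 the shares were 85.5%, 91.1% and 93.1% in ET2 and 0%, 0.215% and 2.42% in M1. Lhx5 was detected in 18.8%, 21.3% and 24.1% of ET2 nuclei and 7.14%, 25.8% and 30% of M1 nuclei. Thinned to 3000 UMIs per nucleus, the Lhx5 shares were 4.41%, 8.68% and 7.06% in ET2 and 0%, 6.03% and 6.4% in M1. In inhibitory cluster 0 an Lhx5 UMI was found in 0 of 1301, 9 of 5438 and 1 of 942 nuclei of mice 1, 2 and 3. Of the ET2 nuclei with Lhx5, 13 of 13, 63 of 67 and 21 of 21 also held Ebf3, and 6 of 13, 21 of 67 and 10 of 21 held Ebf1. Every M1 nucleus with Lhx5 held Ebf1 (1, 120 and 62 nuclei). Ebf3 in ET2, and Ebf1 in M1 of mice 2 and 3, were found in most nuclei of the type in any case.

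The other genes with the largest excess in ET2 include signalling and structural genes. Edn1, which encodes the vasoactive peptide endothelin 1, was at 123, 131 and 135 CPM in ET2 and 0, 0.240 and 0 CPM in M1 (883-fold by summed UMIs, interval 244 to 7307). Npb, a neuropeptide, was at 9.26, 28.4 and 13.4 CPM in ET2 and had no UMI in M1, so that it was at least 100.4-fold higher against a floor of 3 counts over the M1 libraries. Dmrtb1, a DM-domain factor, also had no M1 UMI and was at least 44.7-fold higher, at 12.7, 9.29 and 9.88 CPM in ET2. The homeobox gene Uncx was at 33.6, 21.4 and 35.3 CPM against 0, 0 and 0.199 CPM, with 1 UMI in M1 (356-fold, interval 63.0 to 14147). Col27a1, a fibrillar collagen, was at 57.9, 41.3 and 45.2 CPM in ET2 and also had 1 UMI in M1. Others among the 12 genes with the largest fold in this direction, beside Lhx1, Ebf3 and Ebf2, were Rbpms2 (an RNA-binding protein), Psrc1 (a spindle protein) and Tmem182, which lay between 10.6 and 39.3 CPM in ET2 with 1 or 2 UMIs in M1. The study's ET2 list of 9 genes had been chosen on these samples and is not independent evidence, and all 9 were called higher in ET2. Its members not yet named were at 226, 148 and 183 CPM for Trp73, a p53 relative (6.88 ± 0.25), at 165, 165 and 138 CPM for Nr2f2, the nuclear receptor COUP-TFII (5.76 ± 0.24), and at 27.8, 16.00 and 20.5 CPM for Dsp, a desmosome protein (6.50 ± 0.63).

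In the other direction, Cntn6 was among the genes with the largest excess in M1. Cntn6, a contactin that takes part in neurite contact, was at 377, 3458 and 3285 CPM in the M1 libraries of mice 1, 2 and 3 and at 10.4, 31.2 and 18.3 CPM in ET2 (log2 fold change -6.86 ± 0.37, edgeR adjusted p = 7.24e-08). The level in mouse 1 was far below those of mice 2 and 3 and still above every ET2 library. Fam19a3, a secreted chemokine-like protein, was at 6.19, 20.5 and 19.1 CPM in M1 and had no UMI in ET2, which makes it at least 40.7-fold higher against the floor of 3 counts over the ET2 libraries. DESeq2 gave Fam19a3 and Npb the same directions and called neither. Doc2b, a calcium sensor of vesicle release, was at 24.8, 109 and 106 CPM in M1 and 0, 1.03 and 0 CPM in ET2 (-7.24 ± 0.38). Kcng1, a modifier subunit of Kv2 potassium channels, was at 37.1, 75.9 and 85.1 against 1.16, 2.06 and 0 CPM (-5.71 ± 0.39). Robo1, a receptor for Slit guidance cues, was at 2853, 1908 and 2738 against 45.1, 97.3 and 47.3 CPM (-5.34 ± 0.32), and Vcan, a matrix proteoglycan, at 80.4, 306 and 339 against 2.31, 9.03 and 2.12 CPM (-5.63 ± 0.32). The remaining 6 were Tslp (a cytokine), Agbl2 (a carboxypeptidase), Cdh23 (a cadherin), Gulp1 (an engulfment adaptor), Rapgef3 (the cAMP-gated exchange factor EPAC1) and Tgfa (a ligand of the EGF receptor), with log2 fold changes of -6.23, -5.61, -5.25, -5.24, -5.16 and -5.07.

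The study's list of 14 M1 genes had also been chosen on these samples, and its direction is not independent evidence. Of its members 12 were tested and 11 were called higher in M1, Lhx5 being the exception. Gabra2, a subunit of GABA-A receptors, was at 155, 1759.7 and 1927 CPM in M1 and 71.7, 101 and 60.0 CPM in ET2, with mouse 1 far below mice 2 and 3 (-3.79 ± 0.56; -4.60 without mouse 1). Sertm1, a small membrane protein, was at 61.9, 72.0 and 72.9 against 10.4, 13.9 and 9.88 CPM, and Nrp2, a semaphorin receptor, at 384, 679 and 760.2 against 77.5, 39.2 and 85.4 CPM. Baiap3, Adgrl2, Chrna5 and Olfr1259 had log2 fold changes of -3.08, -2.55, -4.30 and -4.49. C1ql1 and Dsc2 did not pass the filter on low counts in this comparison. Without mouse 1 both were tested and called, as were all 13 members other than Lhx5.

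The T-box factors, which act in mitral and tufted cell development, did not move as a group. Tbr1 was at 86.8, 86.7 and 81.8 CPM in ET2 and 18.6, 5.51 and 3.39 CPM in M1 (4.00 ± 0.26, edgeR adjusted p = 2.55e-07), with all ET2 libraries above. Tbx21 was higher in M1, at 24.8, 104 and 98.0 against 30.1, 17.6 and 17.6 CPM (-2.28 ± 0.31). Its libraries overlapped through the M1 library of mouse 1, and it was not called without mouse 2. Eomes was at 35.9, 51.1 and 48.0 CPM in ET2 and 49.5, 83.7 and 76.5 CPM in M1, and its log2 fold change of -0.75 was under the threshold of size. Among 41 tested genes of a list of other regulators, 9 were higher in ET2 and 6 in M1, beside 5.84% and 6.44% of all genes. Beside Uncx, Trp73 and Nr2f2, Nhlh2, a basic helix-loop-helix factor, was called in ET2 (4.15 ± 0.65), though not without mouse 2. Uncx, Trp73 and Nr2f2 are on the study's ET2 list, which was chosen on these samples. Foxp2, a forkhead factor, had 384, 293 and 262 CPM in M1 and 24.3, 33.8 and 26.8 CPM in ET2 (-3.41 ± 0.19), and the zinc finger factors Tshz3 and Tshz2 were also higher in M1 (-3.00 ± 0.21 and -1.37 ± 0.19).

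Several of these genes are also known from Cajal-Retzius cells, the early reelin-secreting neurons of the cortex. Of 10 genes listed for those cells, all 10 were tested, with 6 higher in ET2 (Lhx1, Ebf3, Ebf2, Trp73, Cacna2d2 and Nhlh2) and 1 higher in M1, beside 5.84% and 6.44% of all genes. Of those 6, 4 are on the study's ET2 list. The last was Ndnf, a secreted neurite factor, at 92.8, 163 and 149.8 CPM in M1 and 28.9, 30.7 and 20.5 CPM in ET2 (-2.51 ± 0.22). Reln itself, the reelin gene, was high in both, at 1939, 1569 and 1872 CPM in ET2 and 2104, 2387 and 2555 CPM in M1 (-0.43 ± 0.20, 95% interval -0.85 to 0.00). Calb2, which encodes calretinin, was at 164, 134 and 90.3 and 99.0, 252 and 227 CPM and was not called (-0.81). Without mouse 1 it was called higher in M1 (-1.19). The summed level of the 10 genes was 2580 to 3189 CPM in ET2 and 2302 to 2963 CPM in M1, and overlapped. Reln made up most of this sum, so the overlap says little about the other members.

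Ion channel genes differed in both directions. The counts for this and the following families stand beside 5.84% of all genes tested higher in ET2 and 6.44% higher in M1, and no family was tested against the rest. Of 55 potassium channel genes tested, 16 were higher in ET2 and 11 in M1. Kcnj3, the G-protein-gated channel GIRK1, was at 1468, 1432 and 1645 CPM in ET2 and 198, 107 and 43.8 CPM in M1 (4.01 ± 0.34, edgeR adjusted p = 2.22e-06). Kcnb2, a Kv2 delayed rectifier, was at 2528, 2748 and 2483 against 223, 567 and 255 CPM (2.93 ± 0.26). Kcnj2, an inward rectifier, and Kcnj5, a partner of Kcnj3, were also higher in ET2, at 28.9, 27.4 and 33.9 and 5.79, 3.87 and 7.05 CPM against 0, 2.87 and 1.79 and 0, 0.120 and 0 CPM. M1 had more Kcnip4, a subunit of A-type channels, at 1993, 4415 and 4563 CPM against 299.7, 328 and 182 CPM in ET2 (-3.76 ± 0.34). Kcnq3, a channel of the M-current, and Kcnh6 were higher in M1 too (-1.98 ± 0.20 and -2.63 ± 0.46), the latter not without mouse 3. Kcnma1, Dpp6 and Kcnh7 were high in both types, with log2 fold changes of 0.88, -0.82 and -0.90 that stayed under the threshold. Without mouse 1, Dpp6 and Kcnh7 were called higher in M1 (-1.01 and -1.08).

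Of 41 sodium, calcium, HCN and TRPC channel genes tested, 8 were higher in ET2 and 7 in M1. The receptor-operated cation channels Trpc5 and Trpc4 were at 292, 344 and 418 and 319, 343 and 328 CPM in ET2 and 30.9, 22.3 and 17.9 and 43.3, 31.7 and 7.37 CPM in M1 (4.06 ± 0.21 and 4.04 ± 0.34). Cacna2d2, an auxiliary subunit of calcium channels, was at 137, 139 and 121 against 0, 5.63 and 4.582 CPM (4.60 ± 0.22), and Cacna1g, a T-type calcium channel, at 28.9, 45.9 and 38.8 against 0, 5.39 and 1.59 CPM. Cacna1e, the R-type calcium channel, lay the other way, at 947, 1159 and 1141 CPM in M1 and 26.6, 69.9 and 19.8 CPM in ET2 (-4.93 ± 0.31). Scn9a, the sodium channel Nav1.7, was at 6.19, 80.3 and 92.2 CPM in M1 and 6.94, 2.84 and 0.705 CPM in ET2 (-4.71 ± 0.48), and its M1 library of mouse 1 fell within the ET2 range. Cacng3 and Cacng4, auxiliary subunits of AMPA receptors, were called in M1 (-3.05 ± 0.41 and -2.22 ± 0.35), the former not by DESeq2 and the latter not without mouse 2. The calcium channels Cacna1d, Cacna1a and Cacnb4 were not called, with log2 fold changes of 0.13, 0.70 and -0.62.

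Receptor subunits for the principal transmitters differed in both directions. Of 15 GABA receptor genes tested, 5 were higher in ET2 and 4 in M1. Gabrg3 was at 1378, 1356 and 1462 CPM in ET2 and 316, 64.6 and 49.6 CPM in M1 (3.90 ± 0.39), and Gabbr2, a subunit of the metabotropic GABA-B receptor, at 71.7, 83.6 and 69.8 against 12.4, 8.98 and 6.77 CPM (3.15 ± 0.22). Kctd16 and Kctd8, auxiliary subunits of that receptor, were higher in ET2 as well (2.90 ± 0.22 and 1.70 ± 0.36), the latter not without mouse 3. Gabrb1 lay the other way with 3038, 5438 and 5752 CPM in M1 and 241, 314 and 351 CPM in ET2 (-3.98 ± 0.22), and so did Gabra3 and Gabra4 (-3.68 ± 0.32 and -2.10 ± 0.20) beside Gabra2. Of 28 glutamate receptor genes tested, 3 were higher in ET2, namely Shisa6, an AMPA receptor partner (5.43 ± 0.39), Grik4, a kainate receptor subunit (4.85 ± 0.30), and Grm5, a metabotropic receptor (3.16 ± 0.27). Of the 6 higher in M1, Grid1, a delta receptor that organises synapses, was at 582, 237 and 210.2 CPM in M1 and 39.3, 41.3 and 26.8 CPM in ET2 (-3.05 ± 0.22). Grm3, Grik1 and Shisa9 followed (-1.87 ± 0.25, -1.44 ± 0.20 and -1.32 ± 0.28), of which Shisa9 was not called without mouse 2. Grm8 and Grm7 were high in both and not called (0.26 and -0.63).

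The VGLUT1 levels given above overlapped between the types, and those of VGLUT2 did not. Slc17a6, which encodes VGLUT2, was at 268, 258 and 248 CPM in ET2 and 68.1, 87.0 and 90.4 CPM in M1 (1.51 ± 0.18, edgeR adjusted p = 4.07e-05). It was the 1 called gene of 9 tested for the glutamate and GABA phenotype. Of 17 receptors for acetylcholine, monoamines and other modulators, 6 were higher in ET2 and 3 in M1. The nicotinic subunit Chrna4 was at 17.4, 14.5 and 30.3 CPM in ET2 with 2 UMIs in M1 (125-fold, interval 33.9 to 1047), whereas Chrna5 and Chrna3 were higher in M1 (-4.30 ± 0.63 and -1.74 ± 0.24), the latter not without mouse 2. The serotonin receptor Htr2c was higher in M1 (-2.54 ± 0.42) and the dopamine receptor Drd1 in ET2 (2.56 ± 0.69), neither by DESeq2 and Htr2c not without mouse 2. The adrenergic receptors Adrb1 and Adra1b were at 13.9, 23.7 and 17.6 and 72.9, 39.2 and 69.1 CPM in ET2 and 0, 2.76 and 1.79 and 0, 6.71 and 8.37 CPM in M1, while Adra1a and the muscarinic receptors Chrm2 and Chrm3 were not called. Chrm3 had no UMI in the M1 library of mouse 1 and was called higher in M1 without that mouse (-1.002).

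Of 19 neuropeptide and growth factor genes tested, 6 were higher in ET2 and 1 in M1. Beside Edn1, Bdnf, a growth factor of neurons, was at 82.2, 67.9 and 86.8 CPM in ET2 and 0, 4.67 and 0.598 CPM in M1 (4.61 ± 0.41). Nppa, the atrial natriuretic peptide, was at 50.9, 30.5 and 20.5 against 0, 3.23 and 1.39 CPM (3.39 ± 0.37). Crh, corticotropin-releasing hormone, was at 4.63, 5.94 and 28.9 against 0, 1.92 and 0.996 CPM (2.95 ± 0.65), with 1 ET2 library well above the other 2, and was not called without mouse 3. The 1 gene higher in M1 was Nmb, neuromedin B, at 49.5, 63.5 and 46.0 CPM against 17.4, 11.6 and 16.2 CPM in ET2 (-2.06 ± 0.26), which was not called without mouse 2. Cck, the peptide cholecystokinin known from tufted cells, was at 337, 262 and 215 CPM in ET2 and 149, 181 and 114 CPM in M1 and stayed under the threshold (0.76 ± 0.18). Of 15 immediate early genes tested, Bdnf, Fosl2 and Fos were called in ET2. Fosl2 was not called without mouse 2 or mouse 3, and Fos, with a log2 fold change of 1.00, lost its call under 9 of the alternatives tried.

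**Figure D4:**
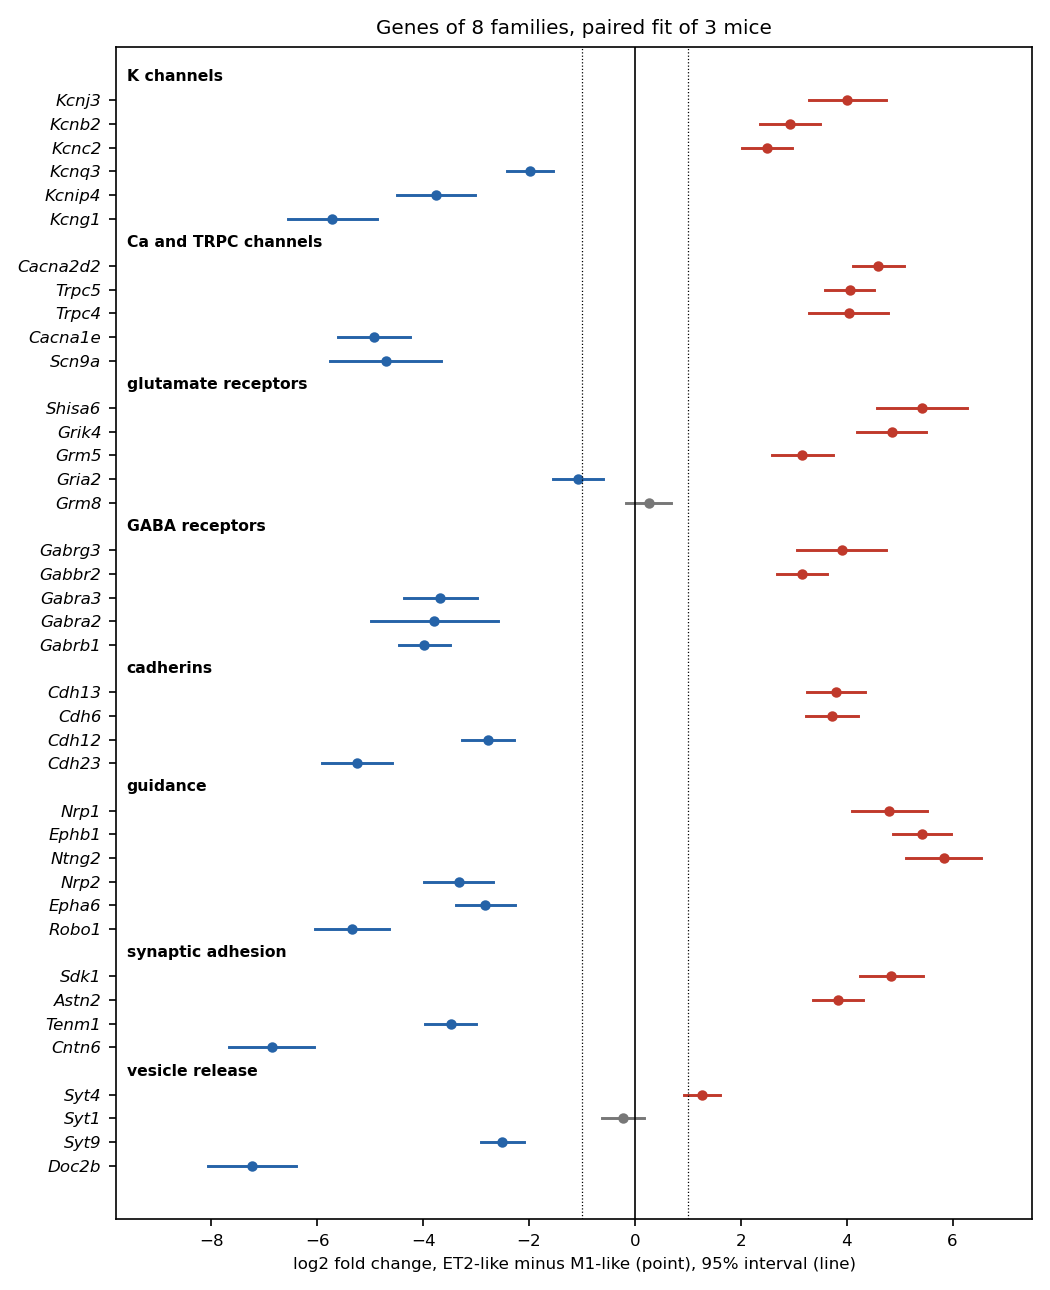
Log2 fold change (ET2-like minus M1-like) with its 95% interval for genes of 8 families, from the paired edgeR fit of 3 mice, red where called higher in ET2, blue where called higher in M1 and grey where not called. The genes plotted are examples chosen after their values were seen, and most families hold genes on both sides, such as Nrp1 at 4.80 and Nrp2 at -3.33, and dotted lines mark the threshold of size at -1 and 1.

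Guidance receptors also differed in both directions, relatives among them. Nrp1 and Nrp2, the co-receptors of secreted semaphorins, were opposed, with Nrp1 at 207, 211 and 299.8 CPM in ET2 and 43.3, 8.03 and 5.78 CPM in M1 (4.80 ± 0.33) and Nrp2 higher in M1 (-3.33 ± 0.30). Of 23 semaphorin, plexin and neuropilin genes tested, 6 were higher in ET2 and 5 in M1. Plxna4, a signalling partner of neuropilins, was higher in ET2 and Plxna1 in M1 (1.85 ± 0.18 and -2.46 ± 0.28). Sema5b and Plxna2 were also higher in ET2 (2.12 ± 0.27 and 1.94 ± 0.33), and Sema6a and Plxna3 in M1 (-1.11 ± 0.18 and -1.06 ± 0.28). Plxna2 lost its call without mouse 2, Sema6a without mouse 3 and Plxna3 without mouse 2 or mouse 3. Sema3a, Sema5a and Sema3e were not called (0.38, -0.41 and -0.48). Of 29 Eph, Slit, Robo, netrin and Unc5 genes tested, 5 were higher in ET2 and 8 in M1. Ephb1 was at 450.1, 389 and 561 CPM in ET2 and 0, 10.1 and 11.2 CPM in M1 (5.42 ± 0.25), and Ntng2, netrin G2, at 82.2, 73.6 and 148 against 0, 2.04 and 0.996 CPM (5.83 ± 0.33). Ephb3 and the netrin receptor Unc5b were also higher in ET2 (3.33 ± 0.72 and 1.79 ± 0.19), Ephb3 not without mouse 3. In M1, beside Robo1, the receptor Epha6 was at 619, 1166 and 1274 CPM against 106, 235 and 112 CPM and the ligand Efna5 at 433, 273 and 305 against 55.5, 55.0 and 33.9 CPM (-2.82 ± 0.25 and -2.80 ± 0.20). The ligand Efna1 was called too (-3.28 ± 0.63), though not without mouse 3. Ntng1, Robo2 and Epha3 were high in both and not called (-0.83, -0.94 and 0.56), but Ntng1 was called higher in M1 without mouse 1 (-1.08).

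Of 27 cadherins and protocadherins tested, 8 were higher in ET2 and 6 in M1. Cdh13 and Cdh6 were at 1347, 1293 and 1261 and 487, 484 and 459 CPM in ET2 and 43.3, 105 and 98.4 and 74.3, 27.3 and 32.9 CPM in M1 (3.79 ± 0.25 and 3.72 ± 0.22). Celsr1 and Cdh20 were next (3.44 ± 0.62 and 1.87 ± 0.31), Celsr1 not without mouse 3. Beside Cdh23, Pcdh19 was higher in M1, at 92.8, 75.6 and 77.1 against 2.31, 8.26 and 2.82 CPM (-3.81 ± 0.31). Cdh9 had no UMI in the M1 library of mouse 1 and -3.34 as its log2 fold change, and it was not called without mouse 2. Cdh7 was also higher in M1 (-2.88 ± 0.35). Pcdh9, Pcdh11x and Cdh4 were not called (-0.55, -0.97 and 0.94), but Pcdh9 was called higher in M1 without mouse 1 (-1.13).

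Of 54 synaptic adhesion genes tested, 4 were higher in ET2 and 17 in M1. The 4 were Sdk1 (sidekick 1, 4.84 ± 0.27), C1ql3 (a secreted complement-like organiser, 4.74 ± 0.35), Astn2 (astrotactin 2, 3.83 ± 0.22) and Dscam (2.84 ± 0.25). Astn2 reached 2981, 3045 and 3240.3 CPM in ET2 and 173, 253 and 199 CPM in M1. In M1, beside Cntn6, the teneurin Tenm1 was at 693, 504 and 621 CPM against 66.0, 61.9 and 38.8 CPM (-3.48 ± 0.22) and the contactin-associated Cntnap5b at 303, 260.2 and 311 against 28.9, 35.6 and 37.4 CPM (-3.10 ± 0.18). The cerebellin Cbln2 was low and called in M1 (-2.83 ± 0.45). Ptprd and Cntnap2 were among the most abundant members and were not called (-0.49 and -0.50). The median log2 fold change of the 54 genes was -0.11, beside 0.05 over all genes tested.

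Of 35 genes of vesicle release tested, 3 were higher in ET2 and 9 in M1. Beside Doc2b, the priming factor Cadps2 was at 297, 90.6 and 63.0 CPM in M1 and 4.63, 14.5 and 13.4 CPM in ET2 (-3.12 ± 0.35), highest in the M1 library of mouse 1, and Cadps2 is on the study's M3 list. The synaptotagmin Syt13 was higher in M1 (-2.61 ± 0.28) and Syt4 in ET2 (1.26 ± 0.16). The other 2 genes higher in ET2 were Sv2c, a vesicle protein, and Cplx2, a complexin (1.78 ± 0.34 and 1.42 ± 0.33), neither called without mouse 3, and Cplx2 not without mouse 2. The general release genes Syt1, Snap25 and Cadps lay at 3188, 3105 and 2970.1, 1605, 1536 and 1589 and 1393, 1439 and 1499.9 CPM in ET2 and 4233, 3160.0 and 3270.5, 1330.5, 1141 and 1183 and 990.1, 1167 and 1245 CPM in M1, and none was called. Of 19 genes for calcium-binding proteins and the reelin pathway, 5 were higher in ET2 and 3 in M1. Dab1 and Lrp8, the adaptor and a receptor of reelin signalling, were higher in ET2 (1.87 ± 0.21 and 1.31 ± 0.18), and Itpr1 and Ryr3, calcium release channels, in M1 (-2.20 ± 0.23 and -1.70 ± 0.20). The calcium-binding proteins Calb1 and Necab1 were called in ET2 (2.09 ± 0.51 and 1.58 ± 0.29) and Hpcal4 in M1 (-1.20 ± 0.36), none of them without mouse 3, and Hpcal4 neither without the mouse block nor by DESeq2.

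The genes that both types shared were sought over the other 5 types. Of 14696 genes tested in a fit of 21 libraries, 1096 (7.46%) were called higher in the mean of ET2 and M1 than in the mean of M2, M3, T1, ET1 and ET4. In 81 of these all 6 libraries lay above all 15 others. Of the 81, 67 (0.456% of the genes tested) differed by less than 1 on the log2 scale between ET2 and M1 and are called shared here, and in 40 of these the 95% interval of that difference lay within -1 to 1. Another 3 of the 81 were called higher in ET2 and 9 higher in M1, and the other 2 had too few UMIs to be tested between ET2 and M1. The rule asked the M1 library of mouse 1, with 161593 UMIs, to lie above 15 others. Without mouse 1 the shared genes numbered 176, of which 62 were among the 67.

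Lhx5 led the shared genes, 6.57 ± 0.33 on the log2 scale above the other 5 types (SE; edgeR adjusted p = 3.26e-16). The pair was compared because both types hold Lhx5, and the gene is on the study's M1 list, chosen on these samples. Its place among the shared genes is thus not independent evidence. Gm27199, an antisense RNA that overlaps Lhx5, was at 53.2, 36.4 and 33.2 CPM in ET2 and 24.8, 43.2 and 35.9 CPM in M1. It was named after its values were seen, and whether the counting used strand is not given in the sources used here, so that reads of the pair may be mixed. Samd3, a sterile alpha motif protein, was at 199, 146 and 239 CPM in ET2 and 149, 154 and 172 CPM in M1, against at most 64.4 CPM in any of the 15 others (5.63 ± 0.16). The 2 types overlapped for this gene, with a log2 fold change of 0.18 (95% interval -0.20 to 0.56). Pbx3, a homeodomain partner of Hox and Meis proteins, was at 605, 705 and 597 and 353, 478 and 324 CPM, against at most 139 CPM (2.80 ± 0.11). ET2 lay above M1 in all libraries for Pbx3, by 0.69 ± 0.18, under the threshold of size. Meis1, a homeodomain factor that binds with Pbx proteins, was at 35.9, 64.5 and 31.0 and 18.6, 42.2 and 13.9 CPM against at most 9.67 CPM (3.10 ± 0.19). The shared genes were compared with the 5 named types alone, and several were as high in subclusters that carry no type name here. Subcluster 2 averaged 850 CPM of Pbx3 and 100 CPM of Meis1, subcluster 9 averaged 505 CPM of Pbx3, 72.7 CPM of Meis1 and 37.9 CPM of Ptchd1, and subcluster 8 averaged 305 CPM of Slc1a2 and 22.6 CPM of Ptchd1. Pbx3 was detected in 99.1% of inhibitory nuclei of cluster 0 in mouse 1. Of the 10 inhibitory markers, Dlx6os1, Calb2, Meis2 and Synpr were called higher in ET2 and M1 together than in the other 5 types (1.79, 1.61, 1.60 and 1.25). The other members, Gad1 at 0.77 among them, were not called, and no inhibitory marker met the rule for shared genes. The cause of this excess was not tested.

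The others of the 12 with the largest excess included adhesion and signalling genes. Clstn2, calsyntenin 2, was at 1684, 1657 and 1661 CPM in ET2 and 1238, 2966 and 3429.8 CPM in M1, against at most 1174 CPM (3.73 ± 0.14). Sema5a, a membrane semaphorin, was at 356, 336 and 246 and 297, 422 and 456 CPM against at most 96.7 CPM (3.36 ± 0.09). Slc1a2, the glutamate transporter GLT-1 that astrocytes hold in quantity, was at 239.5, 230.0 and 288 and 217, 144 and 261 CPM against at most 61.6 CPM (3.21 ± 0.09). Of the other astrocyte markers, Slc1a3 was at 12.7, 11.6 and 9.88 and 0, 6.95 and 3.39 CPM, and Gfap, Aqp4, Aldh1l1, Gja1 and S1pr1 had too few UMIs to be tested. Pde9a, a cGMP phosphodiesterase, was at 47.4, 28.4 and 31.7 and 12.4, 56.5 and 67.3 CPM (4.42 ± 0.21), and Grb14, an adaptor of the insulin receptor, at 185, 153 and 182 and 80.4, 96.2 and 141 CPM (3.10 ± 0.10). Ptchd1 and Fam212b were lower, at 15.04, 18.1 and 20.5 and 16.2, 16.3 and 24.7 CPM in ET2 and 12.4, 14.4 and 9.96 and 12.4, 10.3 and 8.37 CPM in M1. Flrt2, an adhesion molecule of guidance, was at 44.0, 14.7 and 69.8 and 235, 14.6 and 12.6 CPM. The M1 library of mouse 1 set its M1 mean, and without that mouse Flrt2 no longer met the rule, with a log2 fold change of 1.13 between the types. Pde9a and Clstn2 also left the shared set without mouse 1, since M1 then exceeded ET2 by more than 1 (-1.13 and -1.04). Without nuclei holding 2 or more inhibitory marker UMIs, Clstn2, Pde9a, Meis1, Fam212b and Ptchd1 did not meet the rule.

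**Figure D5:**
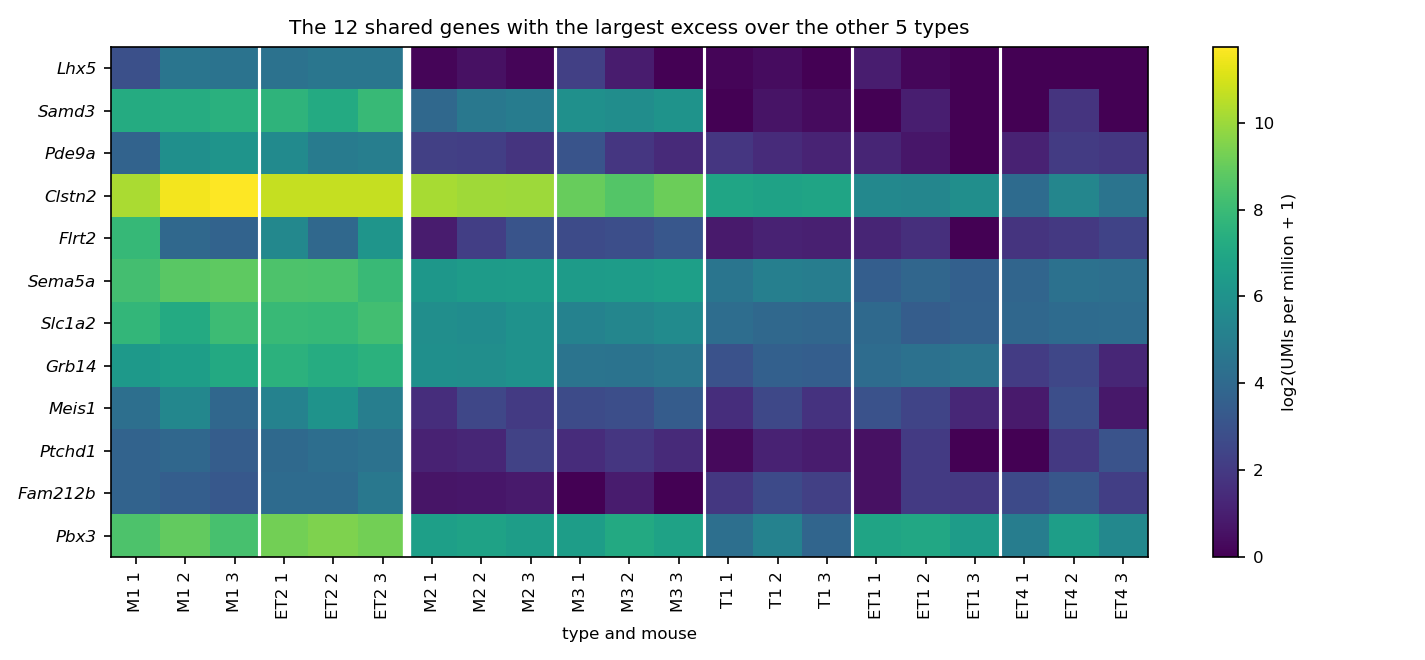
Level, as log2(UMIs per 1000000 + 1), of the 12 shared genes with the largest excess over the other 5 types (rows) in each library (columns, type and mouse). The 6 columns of M1 and ET2 on the left lie above the 15 others in every row, with the M1 library of mouse 1 lower for Lhx5 and Pde9a and higher for Flrt2.

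Set beside the other types in the same fit, the pair was not the closest by number of called genes. ET2 differed from M1 in 14.2% of 14696 genes, from M3 in 13.8% and from M2, T1, ET1 and ET4 in 18.1% to 20.5%. M1 differed from M3 in 12.8% and from M2 in 13.4%. The types differ in their number of nuclei and in depth. The M3 libraries of mice 1, 2 and 3 held 550818, 1132800 and 620677 UMIs, and the M2 libraries 8392662, 9518786 and 7464540. The number of called genes changes with depth, as given in the closing section, so low shares against M3 cannot be read as closeness. These shares were not tested against each other.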

How the data were processed

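Single-nucleus RNA-seq libraries (10x 3′) were made from sorted OB nuclei of 3 mice. The deposited raw UMI counts had been produced by the authors in Cell Ranger, version 3.0.2 by the file headers, against GRCm38. The authors kept nuclei with at least 1000 genes and at most 5 percent mitochondrial UMIs (a deposited percent per nucleus), merged the mice and clustered and subclustered them in Seurat. Those deposited cluster numbers were used here, and types were matched to numbers by the study's marker genes. No doublet caller was run here.

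Raw counts were summed per mouse and subcluster, without other filters. Genes passing filterByExpr were scaled by TMM and tested with edgeR 4.0.16 in R 4.3.3 (quasi-likelihood, mouse as block, Benjamini-Hochberg adjustment over all genes). The study tested single nuclei with another package. Calls needed an adjusted p under 0.05 and a log2 fold change above 1. CPM are UMIs per 1000000 UMIs of a library. The libraries of a mouse come from the same animal, which pairs them. Their deviations from type means correlated across genes with r of 0.02, 0.17 and 0.16 within mice 1, 2 and 3, and between -0.14 and -0.0005 between mice. The M2 and M3 lists used to describe the M1 library of mouse 1, and the split of nuclei by Ebf1, were chosen after values were seen.

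Named were the 12 genes per direction with the largest fold among called protein-coding genes without overlap and at 10 CPM or more, 12 shared genes by excess over the other types, all genes of the LIM, Ebf, T-box and study lists, and in other lists up to 4 called per direction and 3 abundant genes not called. Members and lists were chosen with earlier results of these data known. Fits were also run on simulated counts with the same spread for every gene, no mouse effect and no threshold of size. That run does not test the calls made here. Counting intervals are exact at 95% and cover counting error only. Coordinates are from GENCODE M21, matched for 31011 of 31055 genes. Promoters are from RefSeq (GRCm38.p6) by symbol, which matched 9153 of 12163 tested genes and not Lhx5 or Ebf2. Alternatives were no block, 1 fit of 21 libraries, DESeq2 1.42.0, library size scaling, no filter, each mouse left out, the M1 library of mouse 1 left out, thinning to 161593 UMIs per library, at least 1500 genes per nucleus, and no nuclei with 2 or more inhibitory marker UMIs. Some genes that the rule names are not reported here.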

Additional observations from a re-analysis of the deposited data

How the results depend on the processing

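No called gene turned direction under any alternative. Without the replicate block that pairs the mice, 702 genes were higher in ET2 and 771 in M1 (664 and 735 of them among those called with it), and 67 were shared. Leaving out 1 mouse at a time gave 363 to 814 genes higher in ET2, 432 to 1032 higher in M1 and 85 to 176 shared. Leaving out only the M1 library of mouse 1, with no block, gave 810, 995 and 133. Thinned to the size of the smallest library, 3234 genes could be tested, and 217, 293 and 22 met the rules (181, 254 and 22 of them as before), so the counts change with depth. DESeq2 called 576 and 644 genes and library size scaling 800 and 731, with the median of all genes at 0.12 instead of 0.05 on the log2 scale. Without nuclei holding 2 or more inhibitory marker UMIs, 629 and 765 were called and 55 shared, 40 of them among the 67. The cause of these changes was not tested. Shares of nuclei with a UMI fall with thinning, as given for Ebf1 and Lhx5.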
